A study of Mus musculus with 54 samples.

Results

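The comparison described here set Th17 cells cultured with Arg C against Th17 cells cultured with the vehicle DMSO, in both cases after 2 cell divisions. Its members are the 12 libraries whose titles name Arg C or DMSO at proliferation cycle 3, of 54 libraries in all. They stand for 4 of the 18 samples, 2 for Arg C and 2 for DMSO, because each sample was sequenced as 3 technical replicates and each treatment came from experiment 1 and experiment 2. Th17 cells are helper T cells that secrete interleukin 17. The cells of all groups were CD4+ CD25- T cells, taken from the spleen and lymph nodes of C57BL/6 mice, isolated at a purity that the labels put at about 90%, stained with the division dye CellTrace Violet and driven towards Th17 with antibodies to CD3e and CD28, TGF-β1, IL-6, IL-1β and antibodies that block IFN-γ and IL-4. On day 4, after 96 h with the compound, live CD4+ cells were sorted by dye peak into cycle 2 (1 division), cycle 3 (2 divisions) and cycle 4 (3 or more). The labels give 60 mM for Arg C, a unit that could not be checked, and 100 µM for linezolid, the other compound of the series. They name no age or sex of the mice.

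Argyrin C (Arg C), a cyclic peptide from myxobacteria, and linezolid, an oxazolidinone antibiotic, are both known to block protein synthesis by the ribosomes of mitochondria. These ribosomes make a small set of respiratory chain subunits. Nuclear genes supply every other subunit of the chain and the ribosome's own proteins. Activated T cells normally raise glycolysis, and the factors HIF-1α, Myc and IRF4 are known to support that change and the Th17 programme. Sorting by division number means that cells of cycles 2 and 3 are compared at an equal count of divisions. Cycle 4 holds cells of 3 or more divisions, so there the count can differ between treatments.

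Values are RPKM, reads divided by gene length and by the library's total reads, averaged over the technical replicates. Differences are fitted log2(RPKM + 1) differences, Arg C minus DMSO, with standard errors from limma. A gene is called, and said to rise or fall, when its Benjamini-Hochberg adjusted p from limma is under 0.05 over the 11004 genes tested. Each group has n = 2 experiments. The labels do not describe the mice of the 2 experiments, and sex-linked genes (below) show that the experiments did not draw on the same animals. With n = 2, p-values measure the spread between these samples. That spread was estimated over all 18 samples, since the 4 samples alone leave 1 residual degree of freedom. The fit treats the cycles of 1 treatment and experiment as independent samples, which the labels do not state. If those cycles came from 1 culture, the spread can be understated. The adjusted p-values against DMSO can then be too small and the calls too many.

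The cycle 3 libraries of Arg C and DMSO held 9.49 to 11.2 M reads each, or 28.9 to 32.6 M per sample. The CD4 markers Cd4, Cd3e and Cd3g were abundant, and Cd4 stood at 222 and 231 RPKM in DMSO and at 229 and 256 RPKM in Arg C. Trac, of the same list, was listed at 0 in every sample. The Th17 markers Il17a, Il17f, Il23r and Ccr6 were present in DMSO and lower in Arg C. Of 30 markers of CD8, B, NK, myeloid, neutrophil and erythroid cells, 13 were at 0 in the 4 samples and 5 reached 1 RPKM in any of them, namely Cd8b1, Cd79b, Cd68, Klrd1 and Ly6g. The experiments differed in sex-linked genes. Xist was at 12.6 and 8.94 RPKM in experiment 2 and at 0.00193 and 0 in experiment 1, while the Y-linked Eif2s3y was at 30.4 and 27.9 RPKM in experiment 1 and at 0 in experiment 2. Experiment entered the fit as a block. Bulk values cannot separate fewer cells with a transcript from less RNA per cell.

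Most of the transcriptome moved. With Arg C, 1556 of 11004 genes rose (14.1%) and 6938 fell (63%), and 8493 of the 8494 called genes had the same sign in both experiments. Of the called genes, 258 rose and 2395 fell by at least 2-fold in RPKM + 1, and 36 rose and 296 fell by at least 4-fold. With 0.1 added to RPKM in place of 1, the 2-fold counts were 407 and 3940. The median gene was lower by -0.48 (log2), with -0.55 in experiment 1 and -0.41 in experiment 2. The reads were also spread over fewer genes. Cytosolic ribosomal-protein genes took 17.2% and 17.9% of the gene reads in DMSO against 30.7% and 28.2% in Arg C, and the number of genes that made up the top 50% of reads went from 499 and 474 to 131 and 182. RPKM is relative to the whole library, and its total was rescaled in one alternative by the median ratio of each sample to the average sample. The median gene then stood at -0.009, with 3907 genes higher (35.5%) and 3992 lower (36.3%). All 1556 genes that rose on the RPKM scale were also higher with that scaling, and 3992 of the 6938 that fell were also lower. A further 456 genes fell on the RPKM scale and were higher on the other. Counts on both scales are therefore given for the groups of genes below.

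**Figure D1:**
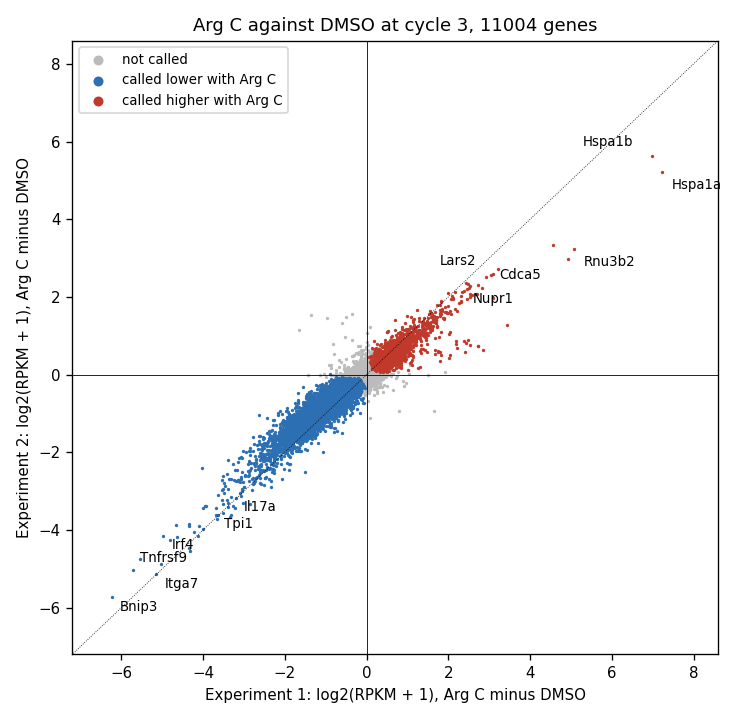
Each point is 1 of 11004 genes, with the log2(RPKM + 1) difference, Arg C minus DMSO at cycle 3, of experiment 1 on the horizontal and of experiment 2 on the vertical axis. The dotted line marks equal differences. Called genes lie in the lower left (6938, blue) or the upper right (1556, red), Bnip3 is the lowest and Hspa1a and Hspa1b are the highest of the named genes, and these 2 are higher in experiment 1 than in experiment 2.

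Genes of glycolysis and of the hypoxia response fell furthest. HIF-1 is a transcription factor that is degraded when its prolines are hydroxylated, and its targets include glucose transporters, nearly every glycolytic enzyme and genes of mitophagy. Bnip3, which encodes a receptor that marks mitochondria for removal, was at 151 and 136 RPKM in DMSO and at 1.02 and 1.57 RPKM in Arg C, a difference of -5.99 ± 0.18 (log2; limma adjusted p = 1.72e-10). The 2 groups were far apart, with no overlap. Egln3, the gene of a prolyl hydroxylase that acts on HIF, went from 177 and 174 RPKM to 4.48 and 4.98 RPKM (-4.95 ± 0.13). P4ha2, a collagen prolyl hydroxylase, went from 33.3 and 28.6 RPKM to 0.694 and 0.344 RPKM. Mgarp, a mitochondrial protein gene, fell from 20.8 and 22.1 RPKM to 0.0915 and 0 RPKM. Of the HIF-1 list's 23 tested members 22 fell and 0 rose (21 lower and 1 higher with median-ratio scaling), with a median of -2.20 against -0.48 over all genes. Among all genes 63% fell, and 36.3% were lower with median-ratio scaling. Hif1a itself fell from 180 and 152 RPKM to 47.4 and 64.9 RPKM (-1.56 ± 0.20). Arnt, the partner of HIF-1α, was the member not called, at 20.8 and 20.4 RPKM in DMSO and 20.0 and 22.2 RPKM in Arg C, and was higher only with median-ratio scaling. It was chosen after its values were seen.

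All 22 tested glycolysis genes fell, against 63% of all genes, and their median was -2.38. With median-ratio scaling 20 were lower and 0 higher, against 36.3% and 35.5% of all genes. Tpi1, triose phosphate isomerase, went from 666 and 638 RPKM to 50.5 and 51.5 RPKM (-3.65 ± 0.08). Pfkl, the liver form of phosphofructokinase, went from 37.9 and 29.8 RPKM to 0.385 and 0.598 RPKM (-4.54 ± 0.18). Enolase, Eno1, went from 1052 and 1018 RPKM to 98.8 and 94.8 RPKM. No Arg C sample overlapped a DMSO sample for any of these 3. The loss reached both ends of the pathway. The glucose importers Slc2a3 (-4.28 ± 0.22) and Slc2a1 (-3.31 ± 0.11) fell, and so did Slc16a3, which exports lactate (-4.41 ± 0.18), and Pkm, pyruvate kinase, at 1307 and 1295 RPKM in DMSO and 234 and 205 RPKM in Arg C. The summed level of the 22 genes in Arg C was 0.238 of that in DMSO in experiment 1 and 0.217 in experiment 2.

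The promoters of 2 of these genes are printed because the targets fell together. They are the 250 bases upstream of the start site from RefSeq (GRCm38.p6), 5′ to 3′ on the gene's strand, with matches to ACGTG or GCGTG, the core that HIF-1 binds, in capitals on either strand. ACGTG is also contained in CACGTG, the E-box that Myc and related factors bind. Bnip3 (chr7:138909507-138909756, minus strand) holds 5 matches and Pfkl (chr10:78009808-78010057, minus strand) holds 1.
Bnip3: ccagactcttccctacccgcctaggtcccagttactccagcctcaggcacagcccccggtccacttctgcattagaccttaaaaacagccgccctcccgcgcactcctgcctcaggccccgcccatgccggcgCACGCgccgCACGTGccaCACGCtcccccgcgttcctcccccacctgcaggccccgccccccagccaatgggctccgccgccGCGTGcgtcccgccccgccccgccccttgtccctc
Pfkl: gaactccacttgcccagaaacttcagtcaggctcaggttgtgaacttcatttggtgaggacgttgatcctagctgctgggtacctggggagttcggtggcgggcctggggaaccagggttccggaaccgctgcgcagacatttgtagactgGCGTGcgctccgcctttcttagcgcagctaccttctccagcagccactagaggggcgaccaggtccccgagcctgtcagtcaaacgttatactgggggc
The core was present in 26 of 33 promoters of 21 glycolysis genes (78.8%) and 20 of 25 promoters of 18 HIF-1 list genes (80.0%). It was present in 57.5% of the 10681 promoters of tested genes with an entry. Promoters of the G2/M list (below), whose genes rose, held it in 13 of 18 (72.2%). The share was 68.2% for the ATF4 list and 48.0% for the heat shock list. In these lists the core was found both where genes fell and where they rose. Its link to the falls was not tested. A match describes the letters only.

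Several genes that define Th17 cells fell steeply. Il17a was at 45.2 and 28.9 RPKM in DMSO and 4.03 and 2.32 RPKM in Arg C (-3.19 ± 0.20). Its partner cytokine gene Il17f went from 194 and 133 RPKM to 23.0 and 12.6 RPKM (-3.17 ± 0.17). In both genes experiment 1 was higher than experiment 2 with either treatment, and the treatments did not overlap. Il21, a cytokine that sustains Th17 cells, fell (-2.79 ± 0.13), as did Il10 (-2.36 ± 0.14) and Tgfb3, a TGF-β isoform, from 21.0 and 18.1 RPKM to 0.183 and 0.151 RPKM. Of 12 tested Th17 cytokine genes 8 fell and 2 rose (6 and 4 with median-ratio scaling), a share of falls near the 63% of all genes, while the list median was -1.37 against -0.48. The 2 that rose, named after their values were seen, were Tnf, at 2.82 and 3.61 RPKM in DMSO and 7.28 and 5.59 RPKM in Arg C, and Il9, from 1.35 and 1.09 RPKM to 3.22 and 1.56 RPKM. Without experiment 1 neither was called, at 0.52 for Tnf and 0.29 for Il9. Ifng, the Th1 cytokine, was at or below 0.0857 RPKM in the 4 samples and was not tested.

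Among the transcription factors, Irf4 lost most. It went from 158 and 106 RPKM to 4.07 and 5.03 RPKM (-4.56 ± 0.32). Bhlhe40, from 180 and 178 RPKM to 16.5 and 26.7 RPKM, and Batf, from 90.0 and 83.4 RPKM to 28.7 and 28.6 RPKM, fell as well. Of 15 tested factors 14 fell and 1 rose (12 and 2 with median-ratio scaling), against 63% and 14.1% of all genes (36.3% and 35.5%). The 1 that rose was Nfkbiz, an atypical IκB protein gene, from 10.7 and 9.54 RPKM to 17.9 and 11.6 RPKM, also named after its values were seen and not called without experiment 1, at 0.26. Foxp3, which defines regulatory T cells, was low with either treatment, at 0.220 and 0.235 RPKM in DMSO and 0.663 and 0.680 RPKM in Arg C (0.45 ± 0.13), and passed the test, though not when either experiment was left out.

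Genes that receive and relay signals mostly fell on the RPKM scale. On that scale 63% of all genes fell and 14.1% rose, and with median-ratio scaling 36.3% were lower and 35.5% higher. Of 21 tested cytokine receptor chains 20 fell and 0 rose, with a median of -1.45 (18 lower and 1 higher with median-ratio scaling). Il21r went from 127 and 118 RPKM to 18.2 and 20.7 RPKM, and Il2ra, the high-affinity IL-2 receptor chain, from 170 and 156 RPKM to 56.7 and 46.9 RPKM. All 17 tested JAK, STAT and SOCS genes fell (11 lower and 1 higher with median-ratio scaling), among them Socs3, a feedback inhibitor of STAT3, from 130 and 102 RPKM to 29.8 and 19.9 RPKM. All 9 tested chemokine receptors fell (8 lower and 0 higher with median-ratio scaling), and Gpr183, an oxysterol receptor, went from 10.7 and 8.71 RPKM to 0.0331 and 0.183 RPKM. All 13 tested integrin chains fell (9 and 1 with median-ratio scaling). Itga7, a laminin-binding chain, went from 49.0 and 40.6 RPKM to 0.408 and 0.179 RPKM (-5.15 ± 0.12). The T cell receptor list was less clear. Of its 19 tested genes 15 fell and 0 rose, but 3 were lower and 4 higher with median-ratio scaling.

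Activation genes moved in both directions. Tnfrsf9, the costimulatory receptor 4-1BB, fell from 180 and 166 RPKM to 2.47 and 4.08 RPKM (-5.37 ± 0.29). Junb, an AP-1 subunit, fell from 288 and 285 RPKM to 49.7 and 60.2 RPKM, and Egr1, an immediate early factor, from 11.8 and 12.4 RPKM to 1.46 and 1.49 RPKM. Of 17 tested activation genes 9 fell and 2 rose (7 and 6 with median-ratio scaling), against 63% and 14.1% of all genes. The 2 that rose were the nuclear receptors Nr4a1, from 26.1 and 24.8 RPKM to 74.1 and 62.7 RPKM, and Nr4a2, from 1.00 and 1.52 RPKM to 4.48 and 5.11 RPKM, named after their values were seen. Both passed the test and also rose with median-ratio scaling.

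In the list for naive and memory cells, of 16 tested genes 13 fell and 3 rose (10 and 4 with median-ratio scaling). The shares over all genes were 63% and 14.1% (36.3% and 35.5% with median-ratio scaling). Id3, an inhibitor of E-protein factors, rose from 3.92 and 4.21 RPKM to 30.96 and 21.1 RPKM (2.39 ± 0.23), with no overlap. Klf2, a factor of quiescent and recirculating T cells, fell from 56.4 and 61.8 RPKM to 12.1 and 18.3 RPKM (-1.92 ± 0.14), and so did Bach2. Dapl1 and Tcf7 were the other 2 that rose, named after their values were seen. Tcf7 did so by 0.23, a call lost when any of the 4 samples was left out.

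Among the 5 markers of other cells named above, Ly6g and Klrd1 moved most. Ly6g, used as a neutrophil marker, fell from 105 and 45.7 RPKM to 1.29 and 0.753 RPKM (-5.14 ± 0.24). The other 4 neutrophil markers, S100a8, S100a9, Retnlg and Csf3r, were at 0 in all 4 samples. Klrd1, on the NK list, went from 11.9 and 10.2 RPKM to 4.04 and 3.72 RPKM, with Ncr1, Klrb1c and Klra8 at 0. The summed level of the neutrophil list is that of Ly6g, and that of the NK list is that of Klrd1. The share of such cells in these results was not tested.

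**Figure D2:**
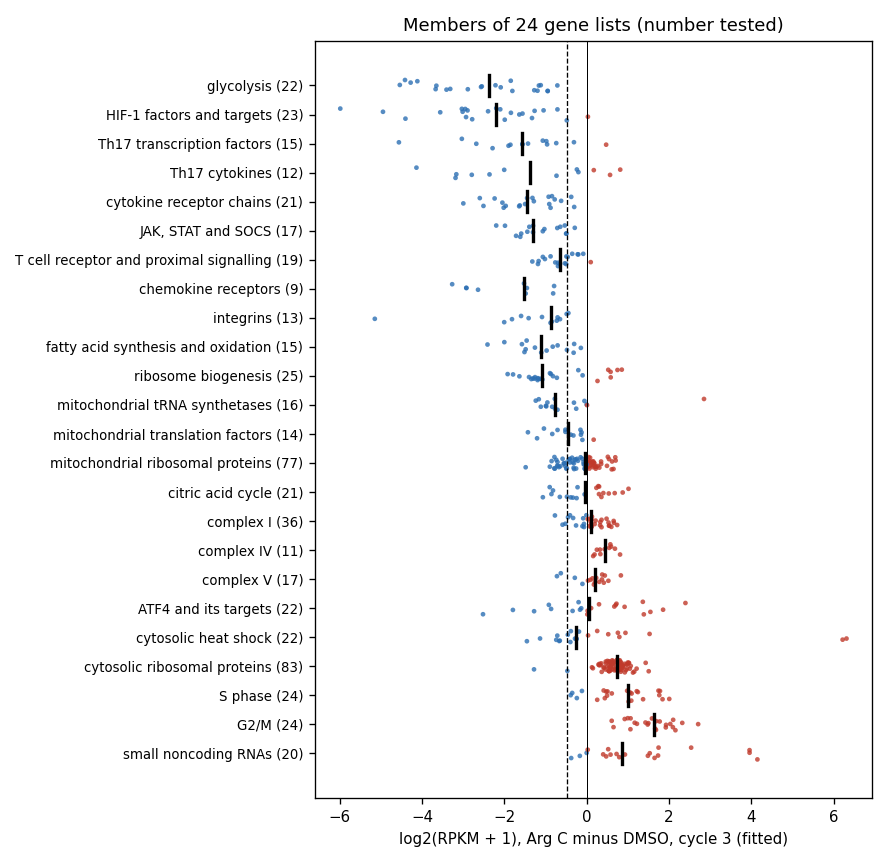
Each point is a tested member of 1 of 24 gene lists (number tested in brackets), placed by its fitted log2(RPKM + 1) difference, Arg C minus DMSO at cycle 3; the black bar is the list median, the dashed line the median of all 11004 genes (-0.48) and the thin line 0. Glycolysis (median -2.38) and HIF-1 genes (-2.20) lie to the left, ribosomal-protein (0.73), S phase (1.00) and G2/M genes (1.62) to the right, and 2 heat shock genes and 3 small RNA genes lie far to the right of their lists.

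Nuclear genes for mitochondrial proteins did not move as 1 group. Gfm1, the elongation factor of the mitochondrial ribosome, was at 11.7 and 11.5 RPKM in DMSO and 10.8 and 10.4 RPKM in Arg C, a difference of -0.12 ± 0.09 that did not pass the test on the RPKM scale (limma adjusted p = 0.229) and was 0.48 and called higher with median-ratio scaling. Tufm, another elongation factor gene, was lower by -0.32 ± 0.08 on the RPKM scale, a call that was lost with median-ratio scaling, where it stood at 0.32. Of 14 tested translation factor genes 9 fell and 0 rose, but with median-ratio scaling 4 were lower and 5 higher. Of all genes 63% fell and 14.1% rose, and with median-ratio scaling 36.3% were lower and 35.5% higher. The share of falls in the list is near that of all genes. The translation factor genes with the smallest p were Tsfm (-1.43 ± 0.09), Mtif3 (-1.21 ± 0.14) and Mtfmt (-1.04 ± 0.11), which were lower on both scales. The mitochondrial ribosomal-protein genes had a median of -0.05, with 17 of 77 higher and 30 lower, and with median-ratio scaling 55 higher and 2 lower.

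Tfb1m, an rRNA methyltransferase, was the 1 of 12 tested genes of mitochondrial transcription and nucleoid that rose, from 2.58 and 2.48 RPKM to 5.31 and 5.82 RPKM, and 9 fell (3 higher and 6 lower with median-ratio scaling). Over all genes 14.1% rose and 63% fell (35.5% higher and 36.3% lower with median-ratio scaling). Peo1, the mitochondrial helicase, fell from 5.35 and 4.87 RPKM to 0.316 and 0.429 RPKM. Of the mitochondrial rRNA genes, Rnr2 was at 864 and 809 RPKM in DMSO and 571 and 283 RPKM in Arg C (-1.05 ± 0.35), called on the RPKM scale but not with median-ratio scaling, at -0.40. The call was also lost when Arg C of experiment 2 (-0.53), DMSO of experiment 1 (-1.04) or DMSO of experiment 2 (-1.07) was left out, and with upper-quartile scaling (-0.58). Rnr1 was at 1164 and 1110 RPKM in DMSO and 1189 and 688 RPKM in Arg C, where the groups overlapped and the test was not passed (-0.33 ± 0.22, and 0.33 with median-ratio scaling).

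Among nuclear-encoded subunits of the respiratory chain more genes rose than fell, on both scales. The list of the mitochondrial genome held only the rRNA genes Rnr1 and Rnr2, so the subunits it encodes are not covered. Of all genes 14.1% rose and 63% fell, and 35.5% were higher and 36.3% lower with median-ratio scaling. Complex III had 4 of 10 tested genes higher and 2 lower (8 and 0 with median-ratio scaling). Complex IV had 10 of 11 tested genes higher and 0 lower (11 and 0 with median-ratio scaling), with a median of 0.44, and complex V had 10 of 17 higher and 3 lower (15 and 0). Complex I had 12 of 36 higher and 7 lower, and 32 higher and 0 lower with median-ratio scaling. Cox8a, a complex IV subunit, went from 377 and 407 RPKM to 713 and 664 RPKM (0.81 ± 0.09), and Ndufa4 from 53.3 and 63.1 RPKM to 97.7 and 97.3 RPKM. The citric acid cycle was divided, with 10 of 21 genes higher and 10 lower (15 and 2 with median-ratio scaling). Cs, citrate synthase, rose from 92.8 and 110 RPKM to 187 and 185 RPKM, and Idh3g, a subunit of NAD-dependent isocitrate dehydrogenase, from 47.3 and 58.8 RPKM to 108 and 107 RPKM. Mitochondrial chaperones and proteases were divided too, with 5 of 18 higher and 11 lower (9 and 5 with median-ratio scaling). The share that fell is near the 63% of all genes. The chaperonin genes Hspe1, from 169 and 196 RPKM to 478 and 492 RPKM, and Hspd1 rose. Afg3l2, a protease of the inner membrane, fell from 58.7 and 59.8 RPKM to 7.78 and 7.99 RPKM (-2.76 ± 0.10), and Lonp1, the matrix protease, fell by 1.39 on the log2 scale.

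Lars2, the leucyl-tRNA synthetase of mitochondria, was the 1 of 16 tested mitochondrial tRNA synthetases that rose, and 11 fell (4 higher and 8 lower with median-ratio scaling). It was at 6.93 and 7.51 RPKM in DMSO and 67.2 and 50.4 RPKM in Arg C (2.85 ± 0.47). The linezolid samples of the same cycle held 79.7 and 27.6 RPKM. Its transcripts and those of the 2 mitochondrial rRNAs in the GENCODE annotation share 0 words of 31 bases. Nars2, Rars2, Pars2 and Hars2 fell. Of all genes 14.1% rose and 63% fell, and 35.5% were higher and 36.3% lower with median-ratio scaling.

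The list of ATF4 and its targets was divided. ATF4 is a factor that induces amino acid synthesis and transport when protein synthesis is disturbed. Atf4 itself was at 219 and 239 RPKM in DMSO and 255 and 238 RPKM in Arg C (0.11 ± 0.11, limma adjusted p = 0.368), and was called higher only with median-ratio scaling (0.76). Of 22 tested genes of its list 10 rose and 6 fell (15 and 4 with median-ratio scaling). Of all genes 14.1% rose and 63% fell, and 35.5% were higher and 36.3% lower with median-ratio scaling. Nupr1, a stress-response coregulator, rose from 3.75 and 4.35 RPKM to 24.6 and 26.7 RPKM (2.40 ± 0.16), Asns, asparagine synthetase, from 9.49 and 8.50 RPKM to 36.2 and 34.1 RPKM (1.86 ± 0.09), and Ddit3, which encodes CHOP, from 21.2 and 22.3 RPKM to 35.2 and 36.9 RPKM. The serine and folate enzymes Mthfd2 (1.55 ± 0.06), Phgdh (1.39 ± 0.09) and Psat1 (1.36 ± 0.09) rose. Of the 13 tested genes of serine and folate metabolism 5 rose and 6 fell (7 and 3 with median-ratio scaling), with a median of -0.24. Vldlr and Stc2, of the ATF4 list, fell, Vldlr from 5.32 and 4.55 RPKM to 0.0258 and 0.0424 RPKM. So did Trib3 and Sesn2, which were named after their values were seen.

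The upstream 250 bases of the 2 most raised of these targets hold 1 match each to TGATGNAA, part of the composite element that ATF4 and C/EBP factors bind, shown in capitals and searched on both strands. Asns lies at chr6:7693210-7693459 and Nupr1 at chr7:126625471-126625720, both on the minus strand (RefSeq, GRCm38.p6).
Asns: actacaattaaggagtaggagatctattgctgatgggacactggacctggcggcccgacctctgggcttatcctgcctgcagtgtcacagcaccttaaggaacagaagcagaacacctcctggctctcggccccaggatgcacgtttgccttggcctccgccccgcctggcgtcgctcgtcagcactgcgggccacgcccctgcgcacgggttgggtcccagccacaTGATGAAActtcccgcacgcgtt
Nupr1: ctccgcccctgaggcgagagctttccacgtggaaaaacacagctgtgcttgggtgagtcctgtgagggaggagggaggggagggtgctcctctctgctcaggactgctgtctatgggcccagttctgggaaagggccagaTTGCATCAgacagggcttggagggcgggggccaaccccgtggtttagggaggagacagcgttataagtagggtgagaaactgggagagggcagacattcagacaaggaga
The element was present in 5 of 22 promoters of 19 genes of the ATF4 list (22.7%) and in 1.93% of the 10681 promoters. The list was made of known ATF4 targets, so this share says nothing about Arg C.

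Hspa1a and Hspa1b, the inducible HSP70 genes, rose more than any other named gene. Hspa1b was at 0.664 and 0.676 RPKM in DMSO and 211 and 82.0 RPKM in Arg C (6.31 ± 0.43, limma adjusted p = 1.53e-07). Hspa1a was at 0.547 and 1.18 RPKM in DMSO and 230 and 79.8 RPKM in Arg C (6.22 ± 0.51). In both genes the Arg C sample of experiment 1 was more than 2-fold above that of experiment 2, and both were far above either DMSO sample. The linezolid samples held 4.32 and 2.32 RPKM of Hspa1b. Both genes lie on chromosome 17, and the reference transcripts share 67.7% of the 31-base words of Hspa1b, so reads could be exchanged between them. The heat shock list as a whole was mixed. Of 22 tested genes 8 rose and 13 fell (14 and 3 with median-ratio scaling), with a median of -0.25. The share of falls is near the 63% of all genes, of which 14.1% rose (35.5% higher and 36.3% lower with median-ratio scaling). The summed RPKM of the list was 1.58 and 1.29 times that of DMSO in the 2 experiments. Hspb1 was the third in size of rise, from 0.460 and 0.787 RPKM to 5.66 and 2.26 RPKM. Dnajb1 (-0.65), Hsph1 (-0.24), Hsp90aa1 (-0.46) and Bag3 (-0.74), well known targets of heat shock factor 1, fell on the RPKM scale, while with median-ratio scaling Hsph1 was higher by 0.33 and the other 3 were not called, at -0.03, 0.19 and -0.20. These 5 were named after their values were seen.

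The promoters of Hspa1a (chr17:34972157-34972406) and Hspa1b (chr17:34959239-34959488), on the minus strand in RefSeq GRCm38.p6, differ at 3 of 250 bases and each hold 1 match, in capitals, to GAANNTTC or TTCNNGAA, the inverted repeats of the heat shock element.
Hspa1a: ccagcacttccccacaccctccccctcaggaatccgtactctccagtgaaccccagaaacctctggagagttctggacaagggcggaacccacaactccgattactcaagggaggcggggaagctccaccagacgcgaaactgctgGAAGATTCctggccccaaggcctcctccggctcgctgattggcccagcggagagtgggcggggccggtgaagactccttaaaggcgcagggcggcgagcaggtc
Hspa1b: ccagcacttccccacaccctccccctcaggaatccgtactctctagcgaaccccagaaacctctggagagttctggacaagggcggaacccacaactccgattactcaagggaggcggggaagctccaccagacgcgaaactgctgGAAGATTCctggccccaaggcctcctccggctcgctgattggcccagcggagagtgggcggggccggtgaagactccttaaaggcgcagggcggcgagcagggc
Such a pair was present in 10 of 25 promoters of 18 heat shock genes (40.0%) and in 10.1% of the 10681 promoters. The list was made of known heat shock genes, so this share says nothing about Arg C.

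Genes of the G2/M and S phase lists were mostly higher in Arg C. All 24 tested G2/M genes rose on both scales, with a median of 1.62, against 14.1% of all genes. Mki67, the antigen Ki-67, was at 7.67 and 13.1 RPKM in DMSO and 37.8 and 44.5 RPKM in Arg C (1.93 ± 0.27). Cdca5, which encodes the cohesion factor sororin, went from 3.55 and 6.05 RPKM to 33.4 and 38.9 RPKM (2.71 ± 0.21). Top2a, a topoisomerase of dividing cells, went from 57.4 and 86.4 RPKM to 287 and 325 RPKM. In each of these 3 genes DMSO of experiment 2 lay above DMSO of experiment 1, and both lay below Arg C. Of 24 tested S phase genes 20 rose and 0 fell (22 and 0 with median-ratio scaling), with Rfc4, a clamp loader subunit, from 7.73 and 9.06 RPKM to 35.8 and 37.6 RPKM. The 4 not called were Ccne1, Ccne2, E2f1 and Rfc3, with differences of -0.12, -0.39, -0.35 and -0.24, and all 4 turned positive with median-ratio scaling, where Ccne1 (0.49) and Rfc3 (0.37) were called higher. Fbxo5, an inhibitor of the anaphase-promoting complex, Prr11 and the meiotic recombination gene Mnd1 were among the 12 largest rises, at 2.42 to 2.53. Replication-dependent histone genes were less clear, with 8 of 36 tested genes higher, 3 lower and 25 not called (16 higher and 2 lower with median-ratio scaling). Their summed RPKM was 0.917 times that of DMSO in experiment 1 and 2.39 times in experiment 2.

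The G1 regulators were mixed. Ccnd2, cyclin D2, fell from 41.9 and 39.1 RPKM to 6.36 and 9.75 RPKM, and Cdk6 and the inhibitor Cdkn1a fell. Of 11 tested genes of this group 5 fell and 2 rose (4 and 5 with median-ratio scaling), against 63% and 14.1% of all genes (36.3% and 35.5%). The risers were Ccnd3 and Rb1, named after their values were seen. Rb1 was at 35.5 and 35.99 RPKM in DMSO and 43.9 and 44.0 RPKM in Arg C, and was not called without either experiment. Myc fell from 46.8 and 32.7 RPKM to 7.69 and 8.54 RPKM (-2.14 ± 0.22).

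Of 83 tested cytosolic ribosomal-protein genes 78 rose and 2 fell, with a median of 0.73 (80 and 2 with median-ratio scaling). Among all genes 14.1% rose, and 35.5% were higher with median-ratio scaling. Rpl7l1 and Rps4l were the 2 that fell, named after their values were seen. Of 25 ribosome biogenesis genes 17 fell and 6 rose (16 and 8 with median-ratio scaling), with a median of -1.08. The share that fell is near the 63% of all genes on the RPKM scale. With median-ratio scaling it lies above the 36.3% of all genes, and the list median lies below the -0.48 of all genes. The summed RPKM of the list was 1.63 and 1.49 times that of DMSO in the 2 experiments. Gnl3, nucleostemin, fell from 9.40 and 8.10 RPKM to 1.22 and 1.97 RPKM. Of 20 translation initiation and elongation genes 8 rose and 9 fell (11 and 5 with median-ratio scaling), with a median of 0.04 and a summed RPKM of 1.77 and 1.58 times that of DMSO. Eif6 (-1.93) and Eif5a (-1.75) were among those that fell.

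Some small RNA genes rose, and most of that list was not tested. Of 141 genes on the list 100 were listed at 0 in the 4 samples, which in this table cannot be read as low expression, since Trac is also listed at 0 in T cells, 20 were tested, 13 rose and 0 fell (15 and 0 with median-ratio scaling). Genes that passed the filter only through Arg C had to differ, so this count supports nothing by itself. Rn7sk, the 7SK RNA that restrains transcription elongation, went from 2.91 and 3.67 RPKM to 32.5 and 17.4 RPKM (2.54 ± 0.34). Copies of the U3 RNA, which guides pre-rRNA cleavage, were at or below 0.714 RPKM in DMSO. Rnu3b2 was at 0 and 0.440 RPKM in DMSO and 32.5 and 12.5 RPKM in Arg C. Rnu3b1, Rnu3b2, Rnu3b3 and Rnu3b4 share 100% of their 31-base words, so the split of reads between them is uncertain, and Rnu3b4 was listed at 0 at cycle 3. As with Hspa1b, experiment 1 was above experiment 2 in Arg C for Rn7sk and Rnu3b2.

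**Figure D3:**
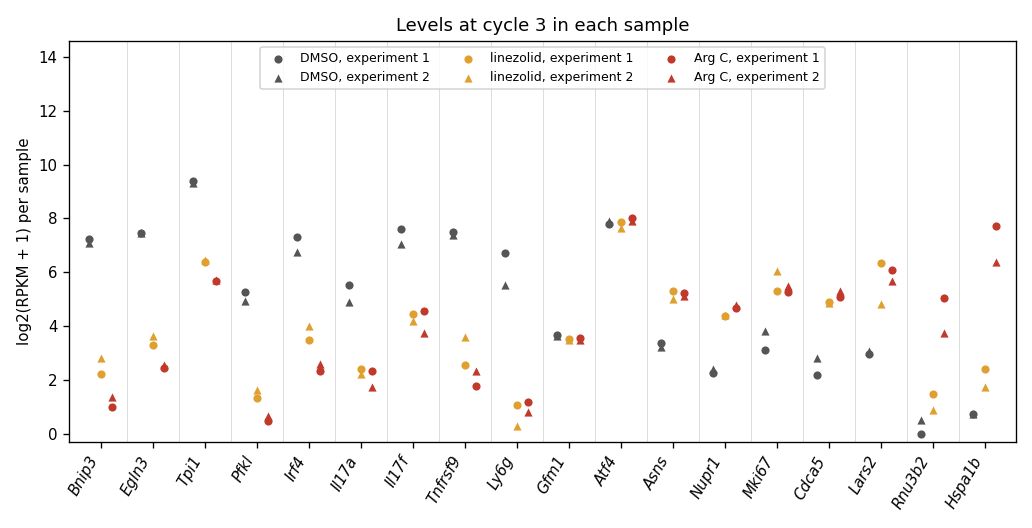
Points are log2(RPKM + 1) of 18 named genes at cycle 3 in each of 6 samples (circles, experiment 1; triangles, experiment 2; grey, DMSO; orange, linezolid; red, Arg C). For Bnip3, Tpi1, Irf4 and Il17a both Arg C samples lie below both DMSO samples, for Asns, Mki67, Lars2 and Hspa1b they lie above, and for Hspa1b and Rnu3b2 both linezolid samples lie between DMSO and Arg C.

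Genes of lipid metabolism, redox control and survival were read against the 63% of all tested genes that fell. Of 15 tested genes of fatty acid synthesis and oxidation 14 fell and 0 rose (9 and 3 with median-ratio scaling), among them Elovl6, a fatty acid elongase, from 13.1 and 12.5 RPKM to 1.29 and 1.93 RPKM, and Cpt2, of mitochondrial fatty acid import. Of 16 antioxidant genes 10 fell and 2 rose (6 and 8 with median-ratio scaling), with Gsr, glutathione reductase, from 23.98 and 18.8 RPKM to 4.26 and 4.37 RPKM. Of 14 BCL2 family genes 11 fell and 1 rose (5 and 5 with median-ratio scaling), and both the protective Mcl1 and the lethal Bcl2l11 (Bim) fell. Of 15 p53 targets 10 fell and 0 rose (6 lower and 6 higher with median-ratio scaling). The antioxidant and p53 shares are near that of all genes. Proteasome genes had 18 of 34 lower and 5 higher, and 4 lower and 21 higher with median-ratio scaling, so that their direction depended on the scaling.

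The effect of Arg C at cycle 3 was then set against its effect at cycles 2 and 4. The labels do not state whether the cycles of 1 treatment and experiment came from 1 culture. In the fit over 18 samples limma called 0 genes in either direction (0%) for cycle 3 against cycle 2, with 1039 genes at an unadjusted p under 0.05, and 0 genes (0%) for cycle 3 against cycle 4, with 679 at an unadjusted p under 0.05. With treatment and experiment together as the block, 401 genes (3.64%) had a higher and 312 (2.84%) a lower effect at cycle 3 than at cycle 2, and 0 differed from cycle 4, with 1564 at an unadjusted p under 0.05. The glycolysis list had medians of -2.71, -2.38 and -2.23 at cycles 2, 3 and 4, and the HIF-1 list -2.14, -2.20 and -2.05. For G2/M genes the medians were 2.03, 1.62 and 0.27, and 24, 24 and 7 of 24 genes were called higher. Mki67 differed by 2.47 ± 0.27 at cycle 2, by 1.93 at cycle 3 and by 0.39 at cycle 4. No G2/M gene passed the test of the difference between cycles in the fit over 18 samples, and the smallest adjusted p of any gene was 0.222 for cycle 3 against cycle 4.

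Genes that led the test with the block of treatment and experiment were taken by the rule for cycle contrasts, after their values were seen. Klf2 was lower by -0.71 at cycle 2, -1.92 at cycle 3 and -2.37 at cycle 4 (adjusted p of cycle 3 against cycle 2 = 0.00464 with that block and 0.08 without it, limma). In Arg C it was at 44.9 and 58.2 RPKM at cycle 2 and at 12.1 and 18.3 RPKM at cycle 3. The metallothioneins Mt1 and Mt2, which bind zinc and copper, showed the reverse. Mt2 was at 16.7 and 14.7 RPKM in Arg C at cycle 2 and 77.5 and 50.2 RPKM at cycle 3, while DMSO held 146 and 90.3 RPKM at cycle 2 and 135 and 131 RPKM at cycle 3. Timm50, an import receptor of the inner mitochondrial membrane, was at -1.18 at cycle 2 and at -0.25 at cycle 3, the latter turning to 0.35 with median-ratio scaling. Lars2 differed by 0.46 at cycle 2, 2.85 at cycle 3 and 1.01 at cycle 4, but its contrasts between cycles did not pass the test in the fit over 18 samples.

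**Figure D4:**
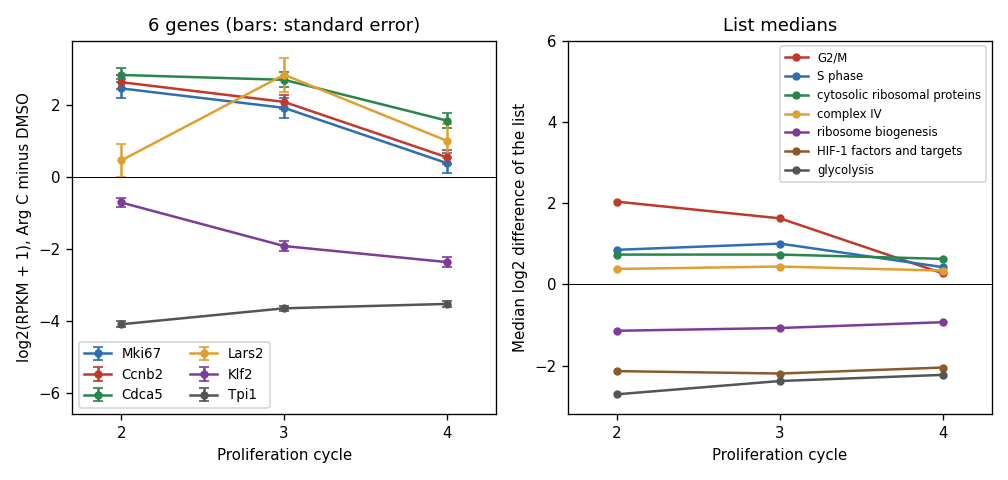
Left, the fitted log2(RPKM + 1) difference, Arg C minus DMSO, of 6 genes at proliferation cycles 2, 3 and 4, with standard errors; right, the median difference of 7 gene lists at each cycle. Mki67 falls from 2.47 at cycle 2 to 0.39 at cycle 4 and the G2/M median from 2.03 to 0.27, Lars2 is highest at cycle 3 (2.85), and the glycolysis median stays between -2.71 and -2.23.

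Arg C was last set against linezolid at cycle 3. The doses differ and were not matched. Limma called 344 genes higher (3.13%) and 3650 lower (33.2%) in Arg C, but with median-ratio scaling the counts were 1830 and 1755. The 5 largest differences upward were those of Hspa1b, Hspa1a and 3 U3 copies. Hspa1b was 4.98 ± 0.43 higher than with linezolid and Rnu3b3 3.40 ± 0.35. The 5 largest downward were Klf13, Slfn2, Slc9a3r1, Ccr7 and Il6st. Ccr7, the lymph node homing receptor, was at 42.1 and 84.3 RPKM with Arg C, 164 and 230 RPKM with linezolid and 351 and 331 RPKM with DMSO. Il6st, the shared receptor chain gp130, was at 3.61 and 5.73 RPKM with Arg C, 13.8 and 21.0 RPKM with linezolid and 23.8 and 18.1 RPKM with DMSO. Some leading genes of the comparison with DMSO passed no test between the compounds. For Il17a the difference was -0.29 ± 0.20, for Mki67 -0.28 ± 0.27 and for Lars2 0.30 ± 0.47. Bnip3 was lower with Arg C than with linezolid by -1.35 ± 0.18, at 1.02 and 1.57 RPKM against 3.75 and 6.08 RPKM, and Hif1a by -0.93 ± 0.20.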

How the data were processed

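RNA from sorted Th17 cells was measured in 54 libraries, 3 technical replicates of each of 18 samples. The authors deposited 1 table of RPKM values for 45802 genes, with no label for the unit. It was inferred from the values, because whole reads could be recovered for all 19284 genes with any value, within 0.01 read. Per the submitters' processing notes, CASAVA and the genome build GRCm38.p5 were used. For the aligner, counter, annotation and strand setting, the answer is "not given in the sources used here". Depth was 8.0 to 12.5 M reads per library. Technical replicates of 1 sample differed by little more than counting noise (chi-square per degree of freedom 1.05 to 1.09 in the cycle 3 samples) and were averaged, so they do not count as n. The library identifiers hold a number that differs between the experiments. It was read as the sequencing lane, which the labels do not state. If it is the lane, lane and experiment cannot be told apart.

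Genes of at least 0.5 RPKM in at least 2 of 18 samples were kept (11004). limma 3.58.1 in R 4.3.3 was fitted with trend to log2(RPKM + 1) of all 18 samples, so that groups share 1 estimate of the spread, with group and experiment as terms, 8 residual degrees of freedom and a Benjamini-Hochberg threshold of 0.05. A log2(RPKM + 1) difference understates changes of low genes. Samples were paired by the experiment number in the labels, and the deviations of same-numbered Arg C and DMSO samples correlated at 0.188, across genes. Over all pairs of groups this correlation ran from -0.0654 to 0.813, so some groups are not independent of each other. The fit was tested on simulated data. Named genes were the 12 largest changes each way whose mean reached 5 RPKM and whose sign was equal in both experiments, up to 4 genes per list with the smallest p, a fixed set and the leading genes of the other contrasts. The comparison, lists and rule were chosen with earlier results of these data known. Some genes that the rule takes are not reported here. Alternatives covered the pseudocount, filter, scaling, limma settings, samples in the fit, block and left-out samples.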

Additional observations from a re-analysis of the deposited data

Results flagged for a closer look

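The effect of Arg C differed between cycles 3 and 2 when the block was treatment together with experiment, so that the cycles were compared within each treatment and experiment. In that fit limma found 401 genes with a higher and 312 with a lower effect at cycle 3, by the test of the difference itself. Klf2, with a lower effect at cycle 3, and Mt1 and Mt2, with a higher one, led those genes. With the experiment alone as the block the counts were 0 and 0.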

How the results depend on the processing

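Against DMSO, 3907 genes were higher and 3992 lower with median-ratio scaling, and 3184 were higher with upper-quartile scaling. Against linezolid the higher counts were 1830 with median-ratio and 1652 with upper-quartile scaling, 560 without mitochondrial-genome and ribosomal-protein genes, 689 with only the compared groups and 214 with only cycle 3, and the lower counts were 1755 with median-ratio and 1848 with upper-quartile scaling. The cause was not tested.

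With no replicate block in the paired design, 108 genes were higher and 1674 lower than with linezolid. Against DMSO the counts without the block were 1330 and 6444. When the 54 libraries were fitted as samples with the replicate block, which treats technical replicates as independent, the counts were 1072 and 6037 against linezolid, 1397 and 1176 for cycle 3 against cycle 2, and 771 and 473 for cycle 3 against cycle 4. For cycle 3 against cycle 2 treatment with experiment as a block gave 401 and 312, no filter gave 5 and 3, upper-quartile scaling 1 and 1, the fit without mitochondrial-genome and ribosomal-protein genes 1 and 1, and median-ratio scaling 1 lower gene. No filter gave 2 and 1 for cycle 3 against cycle 4.

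Leaving out samples or technical replicates gave 1009 to 1498 higher and 5179 to 6845 lower genes against DMSO, with the lowest of both without experiment 1 of Arg C and DMSO. Against linezolid the ranges were 55 to 338 and 948 to 3624. Without Arg C of experiment 1 the counts were 57 and 948, and without Arg C of experiment 2 they were 127 and 2333.

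Some named genes changed sign. With median-ratio scaling these were Ccne1 (0.49), Ccne2 (0.033), Cd3e (0.15), Cd3g (0.16), Cd8b1 (0.26), E2f1 (0.08), Eif2s3y (0.31), Gfm1 (0.48), Hsp90aa1 (0.19), Hsph1 (0.33), Rfc3 (0.37), Rnr1 (0.33), Timm50 (0.35), Tufm (0.32) and Xist (0.025). With upper-quartile scaling they were Ccne1 (0.32), Cd8b1 (0.10), Eif2s3y (0.20), Gfm1 (0.31), Hsp90aa1 (0.008), Hsph1 (0.17), Rfc3 (0.20), Rnr1 (0.14), Timm50 (0.18) and Tufm (0.14). Without mitochondrial-genome and ribosomal-protein genes they were Ccne1 (0.059), Eif2s3y (0.044) and Gfm1 (0.049). With samples or technical replicates left out, Arnt ranged from -0.054 to 0.115, Atf4 from -0.014 to 0.229, Cd68 from -0.15 to 0.277, Eif2s3y from -0.136 to 0.016 and Rnr1 from -0.689 to 0.031.

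Genes at low RPKM rest on few reads, and depth limits what can be detected in them.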
